A study of Mus musculus with 6 samples.

Results

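Immunoglobulin variable (V) segments are the gene pieces from which B cells build their antibodies, and this text describes how the segments were used in splenic B cells and plasma cells. The segments were selected on their own counts, as all genes whose symbol starts with Ighv (heavy chain), Igkv (kappa light chain) or Iglv (lambda light chain) and that had a UMI in at least 10 of the 20161 cell barcodes kept. A UMI is a molecular tag that counts 1 captured RNA molecule. Of 348 V segments listed among 31053 genes, 160 met this rule, which were 85 of 185 Ighv, 72 of 160 Igkv and all 3 Iglv segments. A further 93 segments had UMIs in fewer than 10 barcodes and 95 had none. The members just inside the threshold were Ighv1-62-2 and Igkv4-69 with 10 barcodes each, and 6 segments just outside had 9 (Ighv1-23, Ighv2-6-8, Ighv8-6, Igkv4-81, Igkv9-123 and Igkv9-129). The members held 39540 of 39996 V UMIs. Their abundance above the threshold is a description, since it is what chose them.

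The study profiled RNA and surface proteins of splenocytes together (CITE-seq, with a 10x Genomics 3′ v3.1 kit) in male C57BL/6 mice. The groups were aged mice given PF4 (platelet factor 4, a chemokine stored in platelets) at 20 months of age, aged mice given saline at 20 months and young mice given saline at 3 months. Every group received 100 µL by tail vein 8 times in 24 days, PF4 being dosed at 5 µg/mL, and the cells of 5 mice were pooled, so that each group is 1 RNA library and 1 antibody library with no replicate. The deposited matrix separates the libraries by a barcode suffix, and no label ties a suffix to a group. The libraries are therefore called library 1, library 2 and library 3, no comparison of age or treatment was made, and no test across samples was possible. Intervals are exact 95% intervals (Clopper-Pearson for shares, Poisson for counts), which cover counting error only. Differences between libraries cannot be told apart from differences between the pooled mice or their preparation.

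B cells and antibody-secreting plasma cells make a heavy and a light chain, each by joining a V segment to shorter pieces upstream of a constant gene. In mice most light chains are kappa, and the lambda locus has few V segments. Ordinarily a B cell shows a single heavy and a single light chain, and its descendants keep the same V segments. B1 cells, a self-renewing B cell lineage that expresses the transcription factor Bhlhe41, are known in mice for a restricted V repertoire. The 3′ kit reads the constant end of the RNA, while the V segment lies at the other end, so that V UMIs were sparse.

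The segments on which the results turn are printed here from the mm10 (GRCm38) reference with the GENCODE vM21 gene models, as the coding bases of the second exon without its leader bases, 5′ to 3′ on the coding strand. Ighv1-80 lies at chr12:115912344-115912637, Ighv1-53 at chr12:115158403-115158696 and Ighv1-50 at chr12:115119748-115120041, all on the minus strand. Capitals mark bases that differ from Ighv1-80.
Ighv1-80: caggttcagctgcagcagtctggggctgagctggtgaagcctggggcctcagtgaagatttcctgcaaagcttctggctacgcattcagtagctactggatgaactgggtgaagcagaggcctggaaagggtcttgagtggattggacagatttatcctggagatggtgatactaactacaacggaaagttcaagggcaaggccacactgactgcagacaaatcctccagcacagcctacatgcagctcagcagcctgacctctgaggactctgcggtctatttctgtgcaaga
Ighv1-53: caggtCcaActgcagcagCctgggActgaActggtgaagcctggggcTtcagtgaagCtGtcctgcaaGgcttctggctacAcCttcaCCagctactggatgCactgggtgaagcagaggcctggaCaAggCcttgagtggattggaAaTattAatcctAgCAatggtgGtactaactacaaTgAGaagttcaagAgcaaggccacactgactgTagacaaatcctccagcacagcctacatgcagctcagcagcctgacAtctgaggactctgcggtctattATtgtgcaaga
Ighv1-50: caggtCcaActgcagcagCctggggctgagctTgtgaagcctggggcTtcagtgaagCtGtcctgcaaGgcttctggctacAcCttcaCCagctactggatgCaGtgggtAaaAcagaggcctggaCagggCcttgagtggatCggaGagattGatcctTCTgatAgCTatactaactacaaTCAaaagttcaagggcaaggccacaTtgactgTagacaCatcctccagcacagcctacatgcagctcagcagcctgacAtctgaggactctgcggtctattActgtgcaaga
Ighv1-53 was identical to Ighv1-80 at 89.1% of 294 positions and Ighv1-50 at 88.1%, with 32 and 35 differing bases spread over the length. The lambda segments Iglv1 (chr16:19085017-19085310) and Iglv2 (chr16:19260401-19260694), also on the minus strand, are shown because they are close copies, and capitals in Iglv2 mark the 7 bases at which it differs from Iglv1.
Iglv1: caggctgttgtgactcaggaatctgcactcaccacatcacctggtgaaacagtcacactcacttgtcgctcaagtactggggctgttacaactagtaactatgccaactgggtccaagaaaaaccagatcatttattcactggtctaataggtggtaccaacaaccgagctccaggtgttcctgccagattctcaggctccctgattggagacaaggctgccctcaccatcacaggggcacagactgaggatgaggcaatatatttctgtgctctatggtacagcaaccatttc
Iglv2: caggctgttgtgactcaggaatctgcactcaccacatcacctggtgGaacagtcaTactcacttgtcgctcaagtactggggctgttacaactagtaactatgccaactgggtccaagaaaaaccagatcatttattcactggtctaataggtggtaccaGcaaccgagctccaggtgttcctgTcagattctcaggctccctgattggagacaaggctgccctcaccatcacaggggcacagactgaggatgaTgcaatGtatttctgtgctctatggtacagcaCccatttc
The kappa segments Igkv4-55 (chr6:69607275-69607560) and Igkv4-70 (chr6:69267888-69268169), on the minus strand, are shown for their recurrent pairs in B cells of library 2, and capitals mark the 17 substituted bases of Igkv4-70.
Igkv4-55: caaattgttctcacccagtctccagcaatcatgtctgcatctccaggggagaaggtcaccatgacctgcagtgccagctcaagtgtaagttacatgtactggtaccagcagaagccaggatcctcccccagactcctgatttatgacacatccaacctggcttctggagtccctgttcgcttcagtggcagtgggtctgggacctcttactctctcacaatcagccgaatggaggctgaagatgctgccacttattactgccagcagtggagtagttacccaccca
Igkv4-70: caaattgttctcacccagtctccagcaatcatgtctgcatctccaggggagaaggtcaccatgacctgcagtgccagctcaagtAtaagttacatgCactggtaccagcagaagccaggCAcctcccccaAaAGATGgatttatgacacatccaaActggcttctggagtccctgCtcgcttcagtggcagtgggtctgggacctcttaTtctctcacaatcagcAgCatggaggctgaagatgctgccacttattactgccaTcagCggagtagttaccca
Close copies matter because a read must fall where they differ to be counted for the right segment. Over windows of 90 bases along each annotated transcript, 82 of the 160 members had no window in common with another V segment, none had all windows in common and 3 had fewer than 50% of windows to themselves. Ighv1-80 was unique in 100% of its windows, Iglv1 in 95.03% (the rest shared with Iglv2), Ighv1-53 in 92.0%, Igkv4-55 in 79.0% and Igkv4-70 in 78.6% (the last pair sharing mainly with each other). Ighv1-50 was unique in 77.4% of its windows, sharing most with Ighv1-59. Values of Ighv1-50, Igkv4-55 and Igkv4-70 are therefore uncertain to that extent. The heavy segments span chromosome 12 from 113572927 to 116010093, the kappa segments chromosome 6 from 67555497 to 70704177 and the lambda segments chromosome 16 from 19085017 to 19260859.

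Plasma cells were barcodes with at least 20 Jchain and 3 Xbp1 UMIs (Jchain joins secreted antibody, Xbp1 is a regulator of secretion), B cells were other barcodes with at least 2 UMIs of Cd79a (a subunit of the B cell receptor), and T cells, with at least 2 Cd3e UMIs and no Cd79a UMI, gave the background. Libraries 1, 2 and 3 held 43, 45 and 37 plasma cells, 1908, 4623 and 4908 B cells, and 647, 1169 and 1256 T cells. The classes carried their markers: the 8 plasma cell genes fixed as markers, which include Jchain and Xbp1, summed to between 23937 and 27977 counts per 1000000 RNA UMIs (CPM) in plasma cells, against 457 to 702 CPM in B cells, and the 6 B cell genes, which include Cd79a, to between 6443 and 6886 CPM in B cells, against 59.0 to 152 CPM in T cells. In library 1 the erythroid genes Hba-a1 and Hbb-bs and the 5 myeloid genes stood higher in B cells, at 11133 and 4772 CPM in its Bhlhe41-negative B cells, than in libraries 2 and 3 (1406 and 1520 CPM erythroid, 436 and 735 CPM myeloid). Median RNA UMIs per barcode lay between 16210 and 16603 in plasma cells, 3332 and 3471 in B cells and 5075 and 5756 in T cells. Of the barcode sequences kept, 43 occurred in more than 1 library.

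Plasma cells carried by far the most V RNA. V segments reached 7319, 10820 and 12447 CPM in plasma cells of libraries 1, 2 and 3, against 422, 438 and 396 CPM in B cells, which is 17.3, 24.7 and 31.4 times as much. T cells had 7.59, 9.16 and 8.92 CPM, so that B cells stood 55.6, 47.7 and 44.4 times above this background. The T cells were required to have no Cd79a UMI, so this background may be too low. The 125 plasma cells thus held 51.2% of all V UMIs and the 11439 B cells 46.6%. By chain, Ighv, Igkv and Iglv made up 37.7%, 54.8% and 7.43% of V UMIs in plasma cells of library 1, 36.4%, 45% and 18.6% in library 2 and 51.2%, 33.6% and 15.3% in library 3. In B cells they made up 49.9%, 35.4% and 14.8% in library 1, 50.96%, 42.3% and 6.72% in library 2 and 51.9%, 41.04% and 7.07% in library 3, so that Iglv was highest in B cells of library 1. A plasma cell had a median of 101, 122 and 113 V UMIs in libraries 1, 2 and 3, and a B cell a median of 1. Every plasma cell had at least 1 V UMI (the lowest had 3, 9 and 4), as did 71.6%, 70.0% and 69.8% of B cells and 3.86%, 5.48% and 4.86% of T cells.

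A V segment was called for a barcode where it had at least 2 UMIs and over 50% of the V UMIs of its chain. Heavy calls were made in 42 of 43, 44 of 45 and 35 of 37 plasma cells, against 362, 795 and 834 B cells (between 16.99% and 18.97%) and no T cell. Light calls were made in 42, 45 and 35 plasma cells and in 253, 555 and 606 B cells. Heavy calls were mostly clean in plasma cells. Among those with at least 5 heavy V UMIs, 33 of 37, 39 of 42 and 31 of 31 had at least 90% of them in 1 segment. For the light chain this held in only 25 of 42, 33 of 45 and 15 of 35 plasma cells. Among B cells with at least 5 heavy V UMIs it held in only 15 of 26, 36 of 64 and 21 of 46. For their light chain it held in 11 of 28, 31 of 67 and 21 of 57. B cells with fewer V UMIs were not checked in this way. A looser call at 1 UMI, used where stated, gave 923, 2154 and 2252 heavy calls in B cells. In T cells it gave 9, 18 and 23 heavy calls, and both chains in 0, 1 and 1 cells.

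Library 1 stood apart from the others in the use of Iglv1, the most abundant lambda V segment, together with Ighv1-80. Iglv1 took 22.4% of light V UMIs in B cells of library 1, against 6.39% in library 2 and 8.05% in library 3. By barcode it was called in 83 of 253 B cells with a light call in library 1 (32.8%, interval 27.1 to 39.0), 36 of 555 in library 2 (6.49%, 4.58 to 8.87) and 54 of 606 in library 3 (8.91%, 6.77 to 11.5). The interval of library 1 lay apart from both others. With plasma cells kept among the B cells, the UMI share came to 15.3%, 19.4% and 19.0%, so that the excess of library 1 holds for B cells with plasma cells set aside. Ighv1-80 took 8.24%, 2.55% and 2.52% of heavy V UMIs in the same order. It was called in 24 of 362 (6.63%, 4.29 to 9.70), 20 of 795 (2.52%, 1.54 to 3.86) and 22 of 834 (2.64%, 1.66 to 3.97) B cells, again with only library 1 apart. Iglv3, the lambda segment next in abundance, was even, with 6.55%, 6.18% and 6.09% of light V UMIs, and Iglv2 had 0.485%, 1.14% and 0.544%.

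The constant genes, which are read far more deeply and did not enter the rule, showed the same library. Among B cells with at least 5 light constant UMIs, those with over 50% of them in Iglc1, the constant gene to which Iglv1 normally joins, numbered 280 of 1862 in library 1 (15.0%, 13.4 to 16.7), 102 of 4437 in library 2 (2.30%, 1.88 to 2.78) and 114 of 4663 in library 3 (2.45%, 2.02 to 2.93). In library 1 most of them, 168 of 280, had a Bhlhe41 UMI, against 7 of 102 in library 2 and 5 of 114 in library 3. Of the 281 B cells of library 1 with a Bhlhe41 UMI, 168 were of this kind (59.8%, 53.8 to 65.6), against 112 of 1581 other B cells (7.08%, 5.87 to 8.46). In library 2 the shares were 7 of 332 (2.11%, 0.852 to 4.30) with Bhlhe41 and 95 of 4105 (2.31%, 1.88 to 2.82) without, and in library 3 they were 5 of 144 (3.47%, 1.14 to 7.92) and 109 of 4519 (2.41%, 1.99 to 2.90). The intervals overlapped in libraries 2 and 3, so that no difference was detectable there, whereas library 1 was apart in both kinds of B cell.

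**Figure D1:**
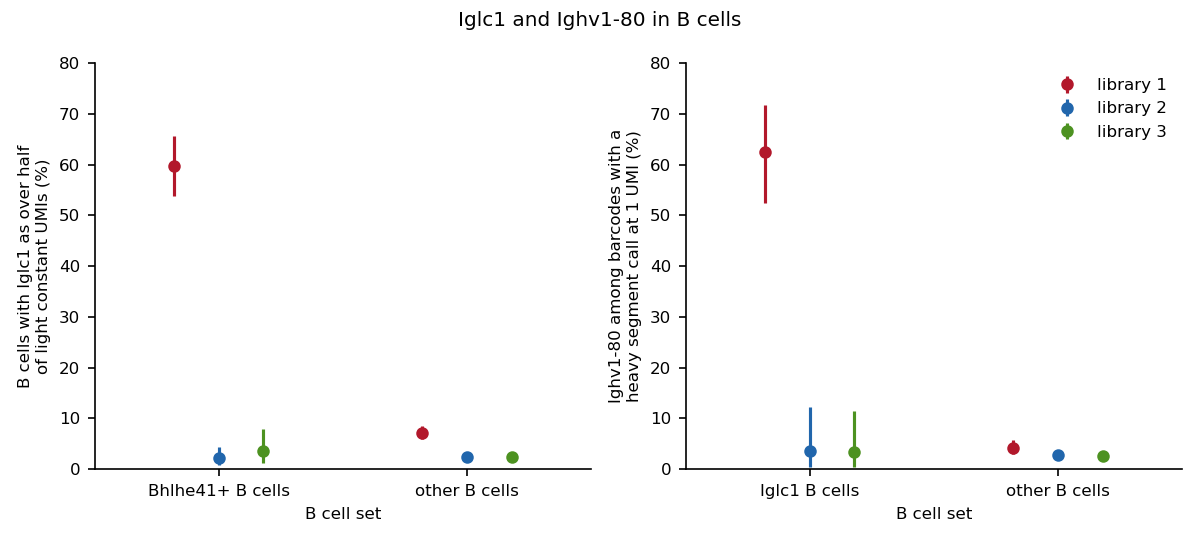
Left, share of B cells (percent of those with at least 5 light constant UMIs) in which Iglc1 held over 50% of light constant UMIs, for B cells with a Bhlhe41 UMI and other B cells of each library. Right, share of barcodes with a heavy call at 1 UMI (percent) that were called for Ighv1-80, for the Iglc1 B cells and the other B cells. Bars are exact 95% intervals; library 1 reaches 59.8% on the left and 62.5% on the right, and every other point lies at 7.08% or below.

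The heavy chain of these Iglc1 B cells was mostly 1 segment. With a call at 1 UMI, Ighv1-80 was the heavy segment of 65 of 104 Iglc1 B cells of library 1 (62.5%, 52.5 to 71.8), against 34 of 819 other B cells (4.15%, 2.89 to 5.75). The next segment among them, Ighv6-6, had 4. In library 2 Ighv1-80 made up 2 of 56 Iglc1 B cells (3.57%, 0.436 to 12.3) and 58 of 2098 other B cells (2.77%, 2.11 to 3.56), and in library 3 it made up 2 of 61 (3.28%, 0.400 to 11.4) and 57 of 2191 (2.60%, 1.98 to 3.36). The effective number of heavy segments, which is how many equally used segments would give the same chance that a pair of barcodes share 1, was 2.55 in Iglc1 B cells of library 1, against 50.2 in its other B cells. In library 2 it was 59.2 in Iglc1 B cells and 49.9 in other B cells, and in library 3 it was 39.8 and 51.3. The Iglc1 B cells were singled out after their values were seen. In library 1 they were also deeper, with a median of 5898 RNA UMIs against 3185 in other B cells, a gap not present in library 2 (3088 against 3340) or library 3 (3259 against 3476). The part of depth in the share of cells called was not tested.

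Read cell by cell, Ighv1-80 and Iglv1 were found together in 46 of 389 B cells of library 1 with both chains called at 1 UMI (11.8%, 8.79 to 15.5), where the product of the separate frequencies came to 12.2 barcodes. The pair was found in 2 of 895 B cells of library 2 and 1 of 921 of library 3, and was called in no plasma cell or T cell. UMIs of both segments, whatever the call, were seen in 1 plasma cell of each library and in 55, 5 and 2 B cells of libraries 1, 2 and 3. With the call at 2 UMIs it was found in 8 of 54 B cells of library 1, beside 2.59 from the product, and in none of 130 and 134 in libraries 2 and 3. Of the 66 Ighv1-80 cells of library 1 with a light call, 69.7% had Iglv1, against 8.70% of 23 in library 2 and 4.17% of 24 in library 3. Sharing V segments does not show common descent, since the junction that would tell clones apart was not analysed here.

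The 46 barcodes were picked on these segments, so their light and heavy segments are given as a description. Ighv1-80 had between 1 and 5 UMIs in each with a median of 1, and Iglv1 had between 1 and 10 with a median of 2. Iglc1 ran from 20 to 450 UMIs (median 59.5), while Igkc, the kappa constant gene, ran from 0 to 48 (median 2.5). Iglc1 was the largest light constant gene in 45 of the 46 and Ighm, the constant gene of IgM, the largest heavy one in all 46. Ighd, the constant gene of IgD, had a median of 0 UMIs (highest 10), against a median of 3 in the other 1862 B cells of library 1. None of the 46 barcode sequences occurred in another library, and 40 had over 5000 RNA UMIs.

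The same cells had few transcripts of recirculating B cells. Bhlhe41 was seen in 28 of the 46 and reached 206 CPM, against 276 CPM in the other 253 Bhlhe41 B cells of library 1, which were chosen for it, and 0 CPM by construction in the B cells without it. Zbtb32, a regulator found in mouse B1 cells, stood at 212 CPM in the 46, against 162 CPM in other Bhlhe41 B cells and 14.1 CPM in the B cells without Bhlhe41. Cd9, a surface protein of B1 and marginal zone cells, stood at 117 CPM in the 46 cells, 109 CPM in other Bhlhe41 B cells and 34.1 CPM in the rest. These genes thus stood near the level of other Bhlhe41 cells. Cr2, the complement receptor that is high on marginal zone cells, was at 13.9 CPM in the 46, against 92.3 and 429 CPM in the other 2 sets. Of the other marginal zone genes listed, S1pr3 had 44.5 CPM in the 46 against 29.4 and 10.2 CPM (the interval of 25.5 to 72.3 CPM overlapped that of the other Bhlhe41 B cells alone), while Dtx1 had 55.7 CPM against 84.3 and 77.5 CPM and Cd1d1 8.35 CPM against 20.2 and 29.9 CPM. Fcer2a, a low-affinity IgE receptor of follicular cells, was at 22.3 CPM against 51.4 and 459.5 CPM. Ighd was at 117 CPM in the 46, against 277 CPM in the other Bhlhe41 B cells and 1275 CPM in the rest, and Ighm at 7066 CPM against 6295 and 3804 CPM. On the protein side, the antibody to B220 made up 2.56% of antibody counts in the 46 cells, against 4.97% in other Bhlhe41 B cells and 9.67% in the rest, while CD5 made up 1.36%, 1.32% and 1.55%. The CD5 antibody, a marker of B1a cells, was thus not higher in the 46.

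Erythroid and myeloid RNA moved with these sets in library 1. The erythroid genes summed to 412 CPM in the 46 cells (both genes seen), 5640 CPM in all Iglc1 B cells and 10847 CPM in the remaining B cells. The 5 myeloid genes, all seen in each set, summed to 289, 1193 and 4686 CPM, and the 6 T cell genes to 44.5, 80.8 and 176 CPM, with 5 of 6 seen in the 46. These other-cell genes were thus lowest where Iglv1 with Ighv1-80 was found, and their part in the result was not tested. The sets also differed in depth, with a median of 7393.5, 5897.5 and 3185 RNA UMIs in the same order. The part of depth in these sums was not tested. In all Bhlhe41 B cells the erythroid sum was 5295 CPM in library 1, against 48.9 and 85.2 CPM in libraries 2 and 3. Their myeloid sum was 1276 CPM in library 1, against 224 and 71.6 CPM.

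Leaving the 46 barcodes out (a choice made after seeing the data) lowered the Iglv1 share of library 1 to 52 of 222 B cells with a light call (23.4%, 18.02 to 29.6), still apart from libraries 2 and 3, and the Ighv1-80 share to 4.63% of heavy V UMIs. Within Bhlhe41 B cells of library 1, Iglv1 still held 33 of 56 light calls (58.9%, 44.98 to 71.9) and Ighv1-80 5 of 24 heavy calls (20.8%, 7.13 to 42.2). Iglv1 in library 1 was therefore not limited to barcodes in which its partner was read.

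**Figure D2:**
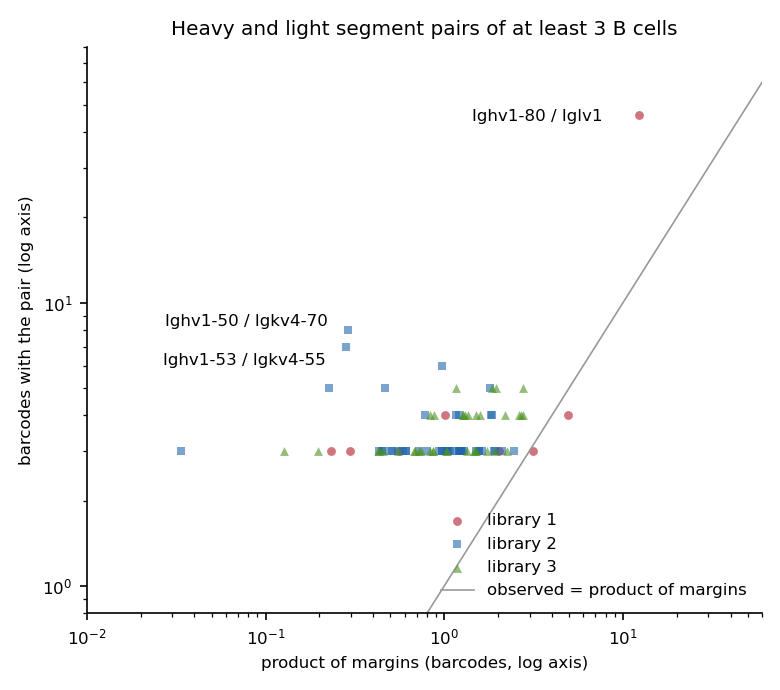
Number of B cells with a given heavy and light segment pair (y axis, barcodes) against the number from the product of the separate segment frequencies (x axis, barcodes), both on log axes, for pairs of at least 3 B cells called at 1 UMI in each library. The line marks equality; Ighv1-80 with Iglv1 in library 1 stands at 46 beside 12.2, and the library 2 pairs named in the text stand at 3 to 8 beside 0.978 or less.

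Library 2 had smaller recurrent pairs of other segments, named here after their counts were seen. With the call at 1 UMI, Ighv1-50 with Igkv4-70 was found in 8 of 895 B cells beside 0.29 from the product of the frequencies. Ighv1-53 with Igkv4-55 was found in 7 beside 0.283. Ighv1-9 with Igkv19-93 was found in 6 (beside 0.978), Ighv1-26 with Igkv4-53 in 5 (beside 0.228), Ighv1-42 with Igkv1-110 in 5 (beside 0.467) and Ighv12-3 with Igkv4-91, a pair known from mouse B1 cells, in 3 (beside 0.0335). A Bhlhe41 UMI was seen in 4 of 8, 5 of 7, 2 of 6, 3 of 5 and 2 of 5 cells of the first 5 pairs, where 333 of all 4623 B cells of the library had one. Ighm was the largest heavy constant gene in all 8, all 7, 1, all 5 and all 5 of them. The exception, Ighv1-9 with Igkv19-93, had Ighg2c, the constant gene of IgG2c, largest in 4 of its 6 cells, and 1 of these cells held 37 UMIs of each segment. The 7 cells with Ighv1-53 and Igkv4-55 held 4918 Ighm UMIs among 49210 RNA UMIs. The 8 cells with Ighv1-50 and Igkv4-70 held 320 among 41008. A Jchain UMI was seen in 2 of those 7 cells and 0 of those 8. Whether any of the 7 were antibody-secreting cells below the plasma cell limits was not tested. With the call at 2 UMIs, made for both chains in 130 B cells, Ighv1-9 with Igkv19-93 was found in 4 and Ighv1-53 with Igkv4-55 in 3. At that call Ighv1-50 with Igkv4-70, Ighv1-26 with Igkv4-53 and Ighv12-3 with Igkv4-91 were found in none. Neither library 1 nor library 3 had Ighv1-53 with Igkv4-55 in a B cell. In library 3 no pair passed 5 of 921 B cells with both chains called at 1 UMI. The 4 pairs at that number were each beside 1.16 to 2.77 from the product.

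The spread of pairs as a whole was lowest in library 1. With the call at 1 UMI, the effective number of pairs in B cells was 69.6 in library 1, 1231 in library 2 and 1513 in library 3. In Bhlhe41 B cells it was 4.20, 90.2 and 528, on 57, 69 and 33 barcodes with both chains, against 291, 1528 and 1532 in the other B cells. The value of 528 rests on 1 repeated pair in 2 barcodes and is imprecise. With the call at 2 UMIs the other B cells had 273, 1017.5 and 984, so that libraries 2 and 3 changed places. Library 1 thus had the fewest effective pairs in both kinds of B cell.

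For the comparison across all segments, called shares in B cells with a Bhlhe41 UMI were set against other B cells in each library. No segment had exact intervals apart in the same direction in all 3 libraries, which is 0% of the 184 segments with a call (155 of them members). Iglv1 was higher in Bhlhe41 B cells in each library: 54 of 77 (70.1%, 58.6 to 80.03) against 29 of 176 (16.5%, 11.3 to 22.8) in library 1, 5 of 60 (8.33%, 2.76 to 18.4) against 31 of 495 (6.26%, 4.29 to 8.77) in library 2 and 9 of 33 (27.3%, 13.3 to 45.5) against 45 of 573 (7.85%, 5.79 to 10.4) in library 3. Its intervals were apart in libraries 1 and 3 and overlapped in library 2. In library 3 the intervals of the Iglc1 share given above overlapped (5 of 144 against 109 of 4519). Those of lambda calls with the Iglc genes above Igkc were apart there (8 of 33 against 48 of 573). With library 2 left out, Iglv1 was the 1 segment that met the rule.

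Ighv1-80 was apart in library 1 alone, at 11 of 30 Bhlhe41 B cells (36.7%, 19.9 to 56.1) against 13 of 332 others (3.92%, 2.10 to 6.60). In library 2, 3 other segments were apart. Igkv4-55 was called in 7 of 60 Bhlhe41 B cells (11.7%, 4.82 to 22.6) against 1 of 495 others (0.202%, 0.00512 to 1.12), and Igkv4-70 in 4 of 60 (6.67%, 1.85 to 16.2) against 3 of 495 (0.606%, 0.125 to 1.76). Ighv1-26 was called in 8 of 60 (13.3%, 5.94 to 24.6) against 22 of 735 (2.99%, 1.89 to 4.50), and in 0 of 30 and 0 of 29 Bhlhe41 B cells of libraries 1 and 3, which allows up to 11.6% and 11.9%. The segments that stood out in Bhlhe41 B cells were thus others in library 2 than in library 1. Bhlhe41 B cells were deeper than other B cells (median 6396, 4830 and 6831 RNA UMIs against 3143, 3248 and 3434), and the part of depth was not tested. The 6 B1 genes, which include Bhlhe41 itself, summed to 660, 553 and 344 CPM in them, against 102, 89.6 and 97.9 CPM in other B cells. Among them Zbtb32 stood at 167, 41.5 and 15.4 CPM against 18.7, 3.89 and 1.21 CPM, and Spn, which encodes CD43, at 76.5, 139 and 48.1 CPM against 36.2, 43.7 and 45.1 CPM. Cd5 was not higher in any library, at 5.10, 17.6 and 17.2 CPM against 7.38, 18.7 and 19.3 CPM, and the CD5 antibody made up 1.30%, 1.57% and 1.42% of antibody counts against 1.56%, 2.03% and 1.98%.

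Heavy V use in B cells was otherwise broad and close between libraries. By the share of heavy V UMIs averaged over libraries, the leading segments were Ighv1-80 (4.44%), Ighv1-9 (3.98%), Ighv1-81 (3.83%), Ighv1-26 (3.74%) and Ighv3-6 (3.70%). Ighv1-9 had 2.99%, 5.26% and 3.71% in libraries 1, 2 and 3, Ighv1-81 4.52%, 3.42% and 3.56%, Ighv1-26 3.48%, 4.08% and 3.66% and Ighv3-6 4.33%, 2.78% and 3.98%. No leading heavy segment other than Ighv1-80 passed 6% in a library. The effective number of heavy segments was 43.4, 46.1 and 47.8 over B cells called at 2 UMIs. With a call at 1 UMI it was 36.6, 49.96 and 51.4 in all B cells, and 46.4, 50.8 and 51.4 in B cells without Bhlhe41.

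The light chain of B cells was less even. The leading kappa segments by average share of light V UMIs were Igkv12-44 (11.7%), Igkv1-117 (4.75%), Igkv10-96 (3.89%), Igkv1-110 (3.64%) and Igkv12-46 (3.50%). Igkv12-44 held 15.6%, 12.0% and 7.40% of light V UMIs but was called in 9.88%, 10.8% and 9.41% of B cells with a light call. The difference came from single barcodes, 1 with 138 light V UMIs in library 1 and 1 with 196 in library 2, neither of which passed the plasma cell limit on Jchain. By barcode, its intervals overlapped between the libraries. The effective number of light segments was 7.92 in library 1, against 26.0 and 25.1 in libraries 2 and 3, and 12.6 in library 1 without the 46 barcodes. Igkv1-117 and Igkv1-110 were unique in only 78.1% and 77.9% of their windows and share the rest, so that their split is uncertain.

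**Figure D3:**
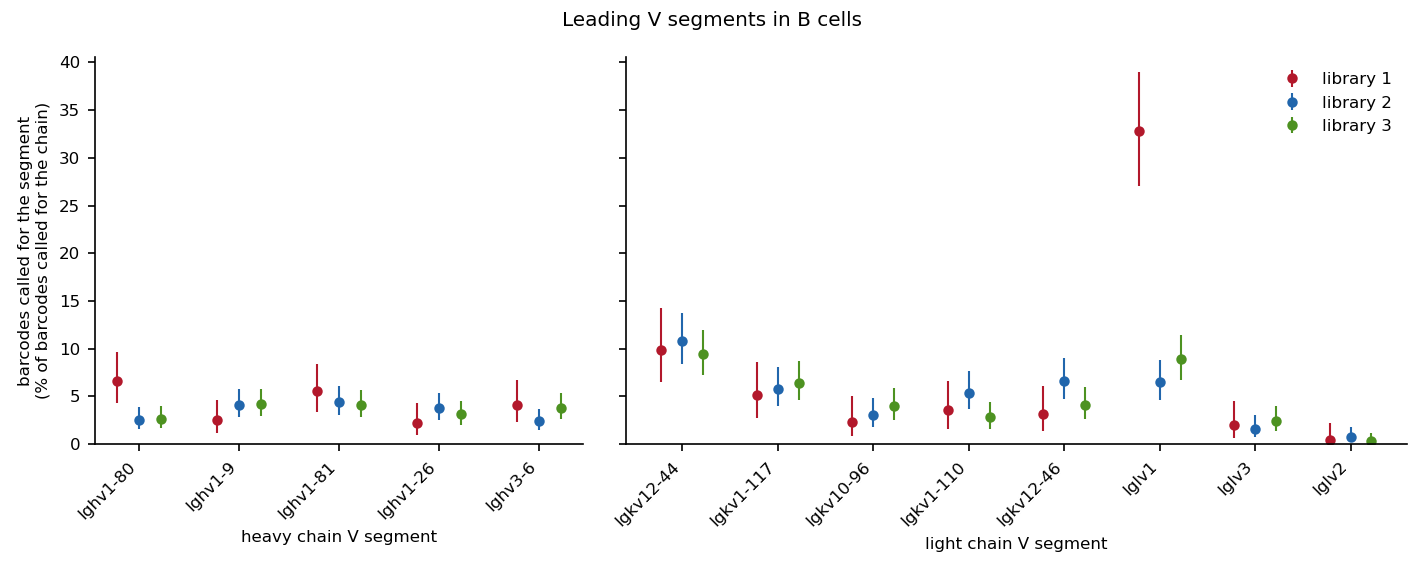
Share of B cells with a call (percent, call at 2 UMIs) for the leading heavy and light segments in each library, with exact 95% intervals. Ighv1-80 and Iglv1 of library 1 (6.63% and 32.8%) stand above libraries 2 and 3, while Igkv12-44 lies between 9.41% and 10.8% in all 3.

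The 2 leading heavy families had close shares in the libraries, while kappa families varied more. Ighv1, the largest heavy family (43 of 93 segments were members), made up 55.2%, 58.1% and 58.6% of heavy V UMIs in B cells, followed by Ighv5 with 9.21%, 10.3% and 9.30%. Among kappa families Igkv12 had 27.9%, 21.5% and 15.8% of kappa V UMIs, which include the barcodes rich in Igkv12-44, and Igkv1 had 13.0%, 16.6% and 16.4%, so that Igkv12 was above Igkv1 in libraries 1 and 2 and below it in library 3. Igkv19 had 1.29%, 5.01% and 2.04%. By position, with each locus cut into 3 stretches of about equal segment number, the heavy stretch farthest from the constant genes gave 42.0%, 40.1% and 41.2% of heavy V UMIs in B cells and the nearest 34.5%, 30.7% and 29.4%. The middle kappa stretch gave only 8.16%, 12.6% and 9.47% of kappa V UMIs, with 19 of its 53 segments being members.

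Ratios between libraries were uneven mostly among rare segments. Of 113 segments with at least 0.5% of their chain in B cells of a library, 41 differed at least 2-fold between the highest and the lowest library, highest in library 1 for 12, library 2 for 12 and library 3 for 17, and the median ratio was 1.75. The limit of 0.5% had to be met in the highest library only, which favours segments that differ. No share over all genes was computed at so low a level, so the 41 are given as a description. Most of the 41 rest on few UMIs, as shown by the 10 with the largest ratios. Igkv3-12 had 3, 72 and 16 UMIs in libraries 1, 2 and 3 (10.5-fold between shares), Igkv19-93 15, 163 and 64 (4.75-fold) and Ighv1-42 4, 39 and 24 (4.08-fold). Igkv4-55 had 2, 62 and 12 (9.04-fold with 3 UMIs as floor), Igkv4-70 5, 32 and 7 (4.46-fold) and Igkv10-95 2, 25 and 6 (4.06-fold with the floor). Those 6 were highest in library 2. Ighv1-63 had 5, 4 and 27 UMIs (6.67-fold), Igkv8-30 2, 15 and 32 (4.78-fold with the floor) and Ighv1-77 1, 8 and 28 (3.86-fold with the floor), all highest in library 3, while Ighv5-9 with 11, 26 and 5 (5.32-fold) was lowest there. On the scale of all genes, 2 segments reached 20 CPM in B cells of a library. Both differed at least 2-fold between libraries, Iglv1 by 3.46-fold and Igkv12-44 by 2.34-fold, beside 2.80% of 6353 genes of at least 20 CPM, whose median was 1.18-fold. For Igkv12-44 this again rests on the single barcodes with many UMIs. The limit of 20 CPM had to be met in the highest library only, which favours segments that differ. Iglv1 met it in library 1 alone, so these folds are given as a description.

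In plasma cells the segments of the deepest barcodes dominated the UMIs, so shares are given over barcodes. Ighv1-53 was called in 9 of 42 plasma cells of library 1 (21.4%, 10.3 to 36.8), 9 of 44 of library 2 (20.5%, 9.80 to 35.3) and 0 of 35 of library 3, which allows up to 10.0%. With the call at 1 UMI, the segment was called in 17 of 923, 69 of 2154 and 46 of 2252 B cells, against 9 of 43, 9 of 44 and 0 of 35 plasma cells. By heavy V UMIs, a different measure, it held 1.65%, 3.06% and 1.72% in B cells and averaged 7.46% over libraries in plasma cells. Its UMIs per plasma cell in library 1 were 84, 52, 35, 22, 22, 17, 14, 8 and 3, and in library 2 they were 57, 51, 35, 33, 19, 17, 16, 13 and 3. The calls thus rested on many UMIs in most cells, unlike those in B cells.

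Its most frequent light partner was Igkv3-2 in library 1 and Igkv4-55 in library 2, a difference not tested. In library 1 the 9 cells had 5 light segments, of which Igkv3-2 was found in 4 (beside 1.07 from the product of the frequencies) and Igkv2-137 in 2. In library 2 they also had 5, of which Igkv4-55 was found in 5 cells (beside 1.43). That pair also recurred in the 7 cells of library 2 that were classed as B cells and together held 4918 Ighm UMIs. All 9 plasma cells of library 2 with Ighv1-53 had Ighm as the largest heavy constant gene. In library 1 this was Ighm in 5, Ighg2b in 2, Ighg2c in 1 and Igha in 1, and both cells with Igkv2-137 were among the switched ones. Igkv4-55 was called in 8 of 45 plasma cells of library 2 (17.8%, 8.00 to 32.1), 1 of 42 of library 1, also with Ighv1-53, and none of 35 of library 3. Of the 7 in library 2 with a heavy call, 5 had Ighv1-53 and 2 Ighv1-80. Ighv1-50 with Igkv4-70, the other leading pair of B cells of library 2, was found in 2 of its plasma cells and in no plasma cell of libraries 1 and 3.

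Igkv5-39 had many heavy partners. It was called in 10 of 42 plasma cells of library 1 (23.8%, 12.1 to 39.5), 6 of 45 of library 2 (13.3%, 5.05 to 26.8) and 0 of 35 of library 3 (up to 10.0%). By light V UMIs, a different measure, it averaged 4.02% over libraries in plasma cells and held 1.64%, 0.716% and 0.653% in B cells. The 10 cells of library 1 had 6 heavy segments, led by Ighv3-1 with 3, and the 6 cells of library 2 had 6, each found once. Ighm was the largest heavy constant gene in 9 of 10 and 6 of 6 of them. Igkv3-2 was called in 5 of 42, 0 of 45 and 0 of 35.

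**Figure D4:**
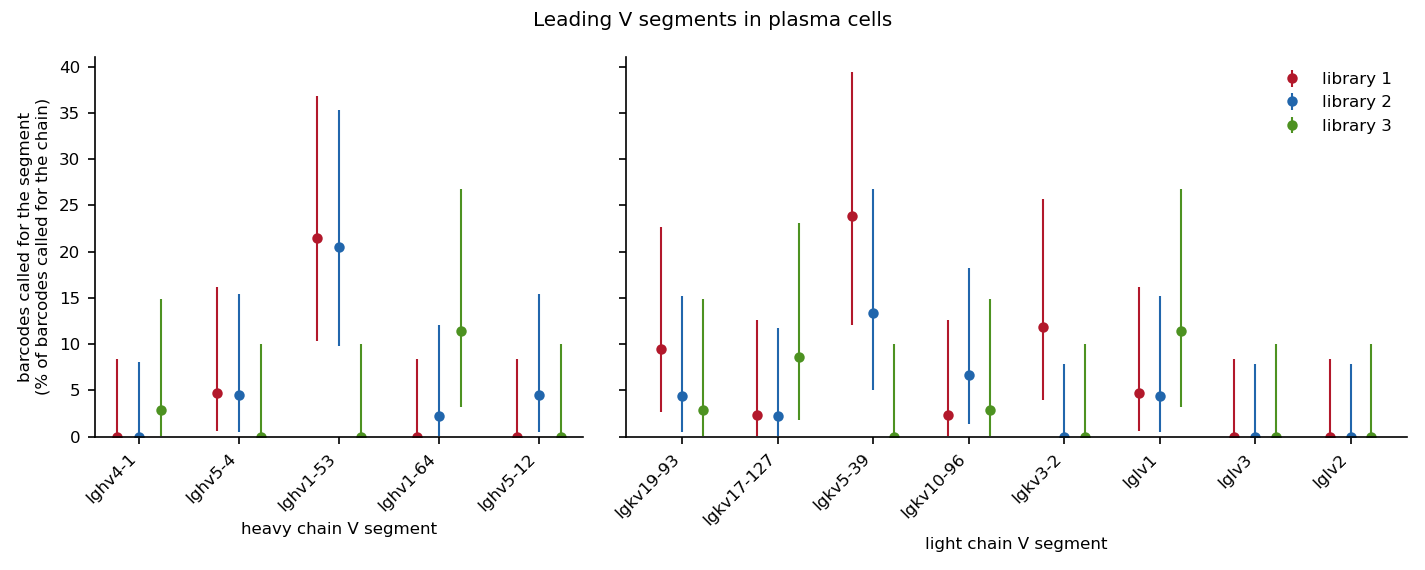
Share of plasma cells with a call (percent, call at 2 UMIs) for the leading heavy and light segments in each library, with exact 95% intervals over 35 to 45 barcodes. Ighv1-53 and Igkv5-39 were called in libraries 1 and 2 (between 13.3% and 23.8%) and in no plasma cell of library 3.

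Library 3 had the most varied plasma cells and the most switched ones. Its effective number of heavy segments was 42.5 and of light segments 49.6, against 17.2 and 12.9 in library 1 and 18.2 and 18.7 in library 2. At an equal 35 barcodes, 25 heavy and 27 light segments were seen in library 3, against 20.5 and 18.6 in library 1 and 20.9 and 20.6 in library 2. Its most frequent heavy segment was Ighv1-64, in 4 of 35 plasma cells (11.4%, 3.20 to 26.7). Ighm was the largest heavy constant gene in 13 of 37 plasma cells of library 3 (35.1%, 20.2 to 52.5), against 35 of 43 (81.4%, 66.6 to 91.6) and 39 of 45 (86.7%, 73.2 to 94.95) in libraries 1 and 2, and the rest of library 3 had Ighg3 (8), Ighg2c (8), Ighg1 (4) and Igha (4). Among Ighm plasma cells alone, the effective number of heavy segments was 66.0 in library 3 on 12 calls, against 25.5 and 15.3 in libraries 1 and 2 on 34 and 38. With so few calls these numbers are imprecise.

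Single barcodes weighed on the V UMI totals of plasma cells. In library 3, Ighv4-1 held 29.0% of 3945 heavy V UMIs and was called in a single cell. Ighv5-12 held 20.4% in library 2 and Ighv1-4 20.0% in library 1, each called in 2 cells. Igkv19-93 held 22.3% of light V UMIs in library 1, on 4 cells, and Iglv1 held 28.5% and 29.4% in libraries 2 and 3, where it was called in 2 and 4 cells. In library 3 those 4 cells had 520 Iglv1 UMIs and the 31 kappa-called plasma cells had 544. Averaged over libraries, the other leading segments by UMIs were Ighv5-4 (7.99%) and Ighv1-64 (6.90%) beside Ighv1-53 (7.46%), and Igkv17-127 (5.74%), Igkv10-96 (3.95%), Igkv5-39 (4.02%) and Igkv3-2 (3.85%). Heavy V UMIs per 1000 heavy constant UMIs were 18.5, 23.8 and 54.9 in plasma cells, against 37.5, 38.3 and 38.6 in B cells, so that this ratio was even in B cells and uneven in plasma cells.

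Iglv1 RNA was also present in plasma cells whose light chain was kappa. The 40, 43 and 31 plasma cells called for a kappa segment all had Igkc as the largest light constant gene, yet held 187, 211 and 1134 CPM of Iglv1 in libraries 1, 2 and 3, against 0.281, 0.694 and 0.719 CPM in T cells. Kappa-called B cells had 8.18, 7.11 and 6.60 CPM. At least 5 Iglv1 UMIs were seen in 10 of 40, 11 of 43 and 16 of 31 kappa-called plasma cells, with a highest value of 26, 22 and 93. A second light segment with at least 5 UMIs, looked for after these values were seen, was found in 13, 15 and 17 kappa-called plasma cells and was Iglv1 in 9, 11 and 16 of them. Iglv3 had 44.5, 39.2 and 58.4 CPM in the same cells.

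The Iglv1 in those cells came with less Iglc1 than in the cells called for Iglv1. Per 100 Iglc1 UMIs, kappa-called plasma cells had 11.9, 14.2 and 68.9 Iglv1 UMIs, whereas Iglv1-called plasma cells had 2.44, 5.18 and 15.3 (on 2, 2 and 4 cells) and Iglv1-called B cells 4.16, 9.45 and 7.73. Among the Iglv1-called plasma cells, Igkc was the largest light constant gene in 1 of 2 in library 1 and 1 of 4 in library 3. In library 3 Iglc3 was the largest in 2 of the 4, which together held 5329 Iglc3 and 3391 Iglc1 UMIs. The ratio of 15.3 thus counts only part of their lambda constant UMIs. In T cells the ratio was 1.35, 1.76 and 2.65, on 1, 5 and 5 Iglv1 UMIs. The surplus was thus largest in library 3. Iglv2, with which Iglv1 shares sequence, had 1, 6 and 38 UMIs in all plasma cells of the libraries, and the part of read assignment was not tested.

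**Figure D5:**
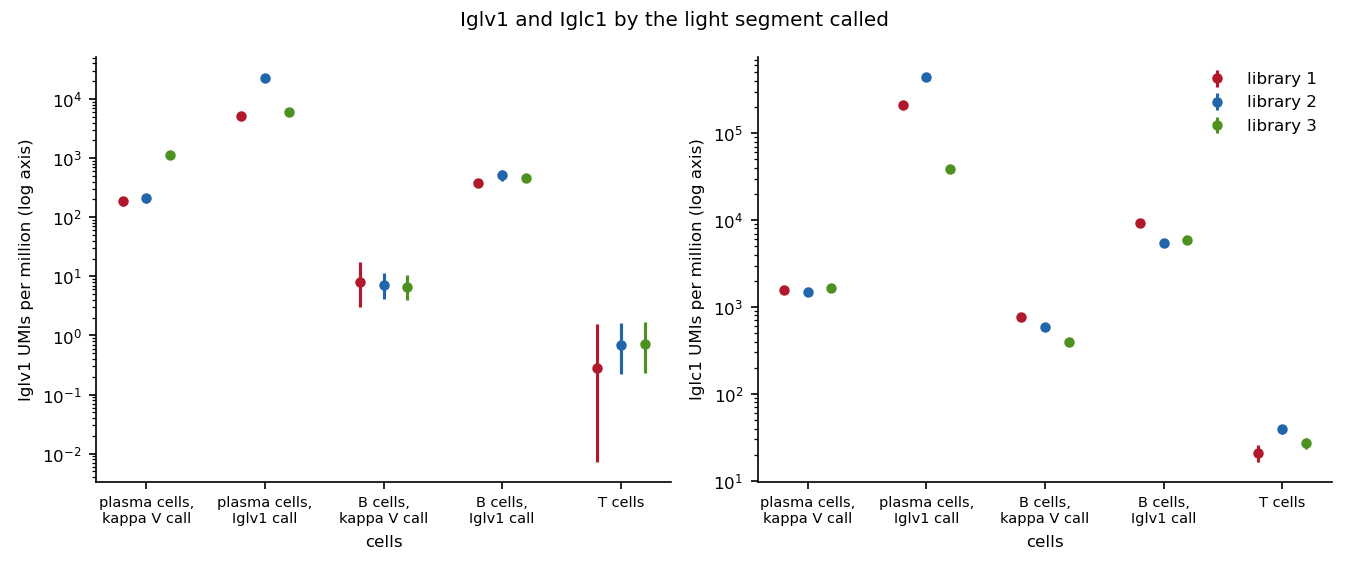
Level of Iglv1 (left) and Iglc1 (right) in CPM on log axes, with exact Poisson intervals, in plasma cells called for a kappa segment, plasma cells called for Iglv1, B cells called for a kappa segment, B cells called for Iglv1 and T cells of each library. Iglv1 in kappa-called plasma cells (187 to 1134 CPM) lies above kappa-called B cells (6.60 to 8.18 CPM) and T cells. The plasma cells called for Iglv1 include 1 in library 1 and 1 in library 3 with Igkc as the largest light constant gene.

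In most B cells the light constant gene matched the V call. Of 1205 B cells called for a kappa segment, 1197 had Igkc as the largest light constant gene, and of 173 called for Iglv1, 130 had Iglc1. Among Iglv1 calls this was 77 of 83 in library 1, 20 of 36 in library 2 and 33 of 54 in library 3. All 7 cells called for Iglv2 had Iglc2. Iglv3 was the exception, since 19 of its 29 called B cells had Igkc largest and 8 had Iglc2 or Iglc3. Lambda shares that count Iglv3 calls are therefore uncertain. With a lambda call counted only where the Iglc genes outnumbered Igkc (a choice made after seeing the data), lambda made up 33.2%, 7.21% and 9.24% of light calls in B cells, beside 35.2%, 8.83% and 11.7% without that condition. In plasma cells lambda calls numbered 2 of 42, 2 of 45 and 4 of 35, and the Iglc genes outnumbered Igkc in 1, 2 and 3 of them.

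Most listed segments known from B1 cells and natural antibodies were rare, Igkv1-135 and Ighv1-55 being the most abundant. Ighv11-2 and Ighv12-3, heavy segments of mouse B1 antibodies to phosphatidylcholine, were seen in 18 and 25 of 20161 barcodes, and their usual light partners Igkv14-126 and Igkv4-91 in 23 and 34. In B cells Ighv11-2 had 3, 6 and 11 UMIs and Ighv12-3 8, 13 and 9 in libraries 1, 2 and 3. Ighv7-1, known from antibodies to phosphorylcholine, was seen in 22 barcodes, with 151 UMIs in plasma cells of library 3, where it was called in 1 cell. Igkv7-33 had no UMI. Ighv6-6, Ighv1-55, Ighv5-2 and Igkv1-135 were seen in 75, 150, 71 and 234 barcodes. In B cells Igkv1-135 held 2.18%, 3.13% and 4.30% of light V UMIs, and the other listed segments held 2.17% or less of their chain in each library.

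Genes of the machinery around V segments gave the setting. Vpreb3, a surrogate light chain gene that mature mouse B cells retain, was at 184, 212 and 204 CPM in B cells, while Vpreb2 and Igll1, which mark precursors, had no UMI in plasma, B or T cells, and Vpreb1 had 1.16 CPM or less in B cells. The recombinase genes Rag1 and Rag2 were at 0.771 CPM or less in B cells, and Dntt, which adds bases at the junction, at 0.311 CPM or less. V segments were thus read in B cells with almost no transcripts of recombination in progress.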

How the data were processed

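Splenocytes were profiled by CITE-seq in 3 libraries, each of 5 pooled mice. The authors deposited 1 matrix of counts (whole UMIs for each gene or antibody in each barcode), made with Cell Ranger 5.0.1 per the file header on build mm10 (per the submitters' processing notes, which also name Seurat), with no normalization found. Of 31053 genes, 30934 (99.6%) matched the GENCODE vM21 annotation by identifier, including all 348 V segments. Barcodes with 300 to 5000 genes and at most 10% mitochondrial UMIs were kept (20161 of 29005), the limits the study states. No doublet caller was run. RNA UMIs of the kept barcodes totalled 20032690, 32270524 and 35697547. Levels are UMIs per 1000000 RNA UMIs summed over barcodes, with exact Poisson intervals. Shares carry exact binomial intervals. The UMIs of 1 barcode are not independent, so shares of cells were read over barcodes called. Effective numbers are unbiased inverse Simpson indices. Named segments were the 5 leading per chain and cell set, the leading one of each plasma cell library, the 10 with the largest ratio between libraries, all Iglv, those apart in the Bhlhe41 comparison and a list known from B1 cells and natural antibodies. Others were named after their values were seen, as the text states. The members, lists and comparisons were chosen with earlier results of these data known. Alternatives were other limits on barcodes, cell classes, calls and folds, and each library left out. Python 3.11.15, numpy 2.4.6, scipy 1.17.1, pandas 2.3.3, matplotlib 3.10.9 and Biopython 1.88 were used, and the index and interval code was tested on simulated data.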

Additional observations from a re-analysis of the deposited data

How the results depend on the processing

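Of 194 alternative values computed for 53 results, libraries left out apart, 155 moved by less than their counting interval or stayed within 1.5 times a count, and 39 moved. A limit of 50 barcodes left 88 segments and a limit of 1 barcode 253. V RNA in B cells was 406, 424.7 and 365.5 CPM in libraries 1, 2 and 3 with at most 5% mitochondrial UMIs, 409.8 CPM in library 3 with at least 5 Cd79a UMIs, and 483.6 and 436.8 CPM in libraries 2 and 3 without barcodes holding a Cd3e UMI. With plasma cells kept among the B cells it was 935.9, 827.1 and 749.9 CPM. The Ighv share then was 42.9% and 43.9% in libraries 1 and 2, the Igkv share 46.6% and 37.6% in libraries 1 and 3 and the Iglv share 10.6%, 12.9% and 11.4%. Ighv1-80 then held 4.00% and 4.86% of heavy UMIs in libraries 1 and 3 and Iglv1 15.3%, 19.4% and 19.0% of light UMIs, so that the excess of library 1 in these UMI shares was lost, plasma cells supplying the added UMIs. V RNA in plasma cells was 7674, 11585 and 13516 CPM with at least 50 Jchain UMIs, and 7105, 10103 and 10945 CPM without the richest barcode of each library. The effective number of light segments was 13.8 in B cells of library 1 with a call at 1 UMI. With a call at 3 UMIs and over 80% it was 5.03, 17.3 and 15.2 in B cells of libraries 1, 2 and 3 and 77.0 in plasma cells of library 3. That call gave Ighv1-80 with Iglv1 20.0% of B cells with both chains, averaged over libraries, beside 4.94% at 2 UMIs. Each library weighs the same in these averages, and at 2 UMIs the pair was found in library 1 alone (8 of 54 B cells). The number of B cells with both chains at the stricter call was not recorded, so that the 20.0% may rest on few cells. Without library 1 the average at 2 UMIs was 0%, and leaving out each library in turn gave 0 to 7.41%. The excess of Iglv1 in Bhlhe41 B cells averaged 25.1 percentage points, and 10.8 to 36.5 with each library left out (lowest without library 1, highest without library 2). The number of segments apart in every library was 0 or 1, the 1 being Iglv1 without library 2. Genes past the fold between libraries were 1.48% at 3-fold and 1.97% among genes of at least 100 CPM. In alternatives added after seeing the data, the effective number of light segments in library 1 was 12.6 without the Ighv1-80 with Iglv1 barcodes, and the lambda share of library 3 was 9.24% where the Iglc genes outnumbered Igkc. No paired analysis was possible because each group has 1 library and no test was made. Depth limits the B cells most, where the median was 1 V UMI per barcode and 12.0% to 13.3% had a light call.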
